A study of Rattus norvegicus with 18 samples.

Results

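The genes described here are 45 components of cell division, chosen by name: 6 of G1 and entry into S phase, 14 of DNA replication in S phase and 25 of G2 and mitosis. A gene was taken from the probe sets that carry its symbol alone, and the probe set with the highest mean intensity over all arrays stood for it. By this rule 42 of the 45 genes were measured, of 14217 named genes on the array. Rrm2 was present only on 2 probe sets that also carry another symbol, and no probe set carried the symbol Cdc6 or Tpx2, so these 3 genes have no value. The measured genes were 6 of G1 and S entry (Ccnd1, Ccnd2, Ccnd3, Ccne1, Ccne2 and E2f1), 12 of S phase and 24 of G2 and mitosis.

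RNA from rat spinal cord material was hybridised to 18 single-channel arrays in 3 groups of 6. One group had received bone morphogenetic protein (BMP, a growth factor related to TGF-beta) at 10 ng/mL and another ciliary neurotrophic factor (CNTF, a cytokine that acts through gp130 and STAT3) at 10 ng/mL, both labelled "4d", taken to mean 4 days. The last group was the control, whose label gives no time, so a difference in age of the material cannot be told apart from an effect of either factor. Which BMP was used, the cell type, the strain and the age of the rats are not in the labels. Nothing there says that arrays of a group came from separate animals or cultures, so the spread behind each p-value is that between arrays and could be technical. All descriptions also carry the entry "14 NT", which was not interpreted. Each array title ends in a number from 1 to 6 that occurs once per group, and arrays are named by group and number.

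Cell division is driven by cyclins that switch on cyclin-dependent kinases in turn. D-type cyclins act first and, together with the E-type cyclins, inactivate the retinoblastoma proteins, which frees E2F factors to switch on the genes of DNA replication; genes of G2 and mitosis follow later and are commonly controlled through CHR and CCAAT elements near their start sites. In the adult spinal cord, oligodendrocyte precursors are the main dividing cells outside injury, and in culture BMP is known for turning these precursors away from the oligodendrocyte fate.

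The promoter windows of these genes show the division between phases in their letters. RefSeq promoters of build GRCr8, each 300 bases long (250 before the transcription start and 50 after it), were matched for 34 of the 42 measured genes; Ccnd1, Ccnd2, Ccne2, E2f1, Mcm4, Ccna2, Aurkb and Ube2c had no entry. The motifs searched on both strands were E2F (TTTCCCGC, TTTCGCGC, TTTGCCGC or TTTGGCGC), CHR (TTTGAA or TTCGAA) and CCAAT. An E2F motif stood in 8 of 11 S phase promoters (72.7%) and in 1 of 21 G2 and mitosis promoters (4.76%), against 2.14% of all 33469 RefSeq promoters. A CHR motif stood in 15 of 21 G2 and mitosis promoters (71.4%) and in 3 of 11 S phase promoters (27.3%), against 19.7% of all promoters. CCAAT stood in 17 of 21 (81%) and 7 of 11 (63.6%), against 37.5% of all, and CHR together with CCAAT in 13 of 21 (61.9%) and 2 of 11 (18.2%), against 7.95% of all. A match describes the letters of a window and is not evidence of binding in this material.

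The promoters of 4 genes are printed, with E2F, CHR and CCAAT motifs of either strand in capitals. Tyms and Cdc25b had the smallest p of their phase, while Mcm5 and Cdk1 were added after their motifs were seen, as windows with several matches. Tyms (thymidylate synthase, which makes the thymidine nucleotide for DNA) has 1 E2F motif, 37 bases before the start, in the window chr9:120776034-120776333 on the minus strand. Mcm5 (a subunit of the MCM helicase that opens replication origins) has 3 E2F motifs, of which 2 on opposite strands overlap each other, and 3 CCAAT motifs in chr19:13488563-13488862 on the plus strand. Cdk1 (the kinase that drives mitosis) has 1 E2F, 2 CHR and 3 CCAAT motifs in chr20:19265043-19265342 on the plus strand. Cdc25b (a phosphatase that activates Cdk1) has 1 CHR site, which reads the same on both strands, and 1 CCAAT motif in chr3:138859923-138860222 on the plus strand. Within these windows no 2 different motifs overlap.
Tyms: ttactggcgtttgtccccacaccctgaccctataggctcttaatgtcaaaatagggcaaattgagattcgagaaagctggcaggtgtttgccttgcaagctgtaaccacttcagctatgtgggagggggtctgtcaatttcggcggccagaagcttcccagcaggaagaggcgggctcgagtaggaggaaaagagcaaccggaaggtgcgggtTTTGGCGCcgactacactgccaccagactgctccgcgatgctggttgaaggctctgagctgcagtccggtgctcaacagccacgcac
Mcm5: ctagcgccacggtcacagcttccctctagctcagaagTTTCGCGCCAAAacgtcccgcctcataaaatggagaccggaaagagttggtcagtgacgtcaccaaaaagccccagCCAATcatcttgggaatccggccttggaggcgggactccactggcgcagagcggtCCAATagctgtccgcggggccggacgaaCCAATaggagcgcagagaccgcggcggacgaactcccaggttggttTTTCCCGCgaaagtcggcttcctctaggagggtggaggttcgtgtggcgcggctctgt
Cdk1: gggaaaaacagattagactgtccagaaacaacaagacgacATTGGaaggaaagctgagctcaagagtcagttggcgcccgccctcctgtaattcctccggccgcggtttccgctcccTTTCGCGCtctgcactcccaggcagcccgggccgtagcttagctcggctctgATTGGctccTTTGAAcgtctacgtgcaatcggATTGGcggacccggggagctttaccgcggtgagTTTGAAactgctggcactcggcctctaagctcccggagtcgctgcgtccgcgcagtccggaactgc
Cdc25b: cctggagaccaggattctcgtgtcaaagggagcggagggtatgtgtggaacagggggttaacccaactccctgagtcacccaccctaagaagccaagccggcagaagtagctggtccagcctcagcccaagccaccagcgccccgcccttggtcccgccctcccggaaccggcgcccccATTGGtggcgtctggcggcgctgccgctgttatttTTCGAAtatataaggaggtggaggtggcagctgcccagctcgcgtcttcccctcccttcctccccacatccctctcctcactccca

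Levels are log2(intensity + 116.655), where the constant is the table's 20th percentile, and the median of the table corresponds to a level of 9.75. Median intensities of single arrays were 666.5 to 817.2. The ratio of 3′ to 5′ GAPDH control probe sets, a sign of RNA quality, was 1.06 to 1.14 on BMP arrays, 1.08 to 1.16 on CNTF arrays and 1.09 to 1.15 on control arrays. The same ratio for beta-actin was 1.35 to 1.82, 1.34 to 1.75 and 1.42 to 1.76 in that order. In each group number 5 had the highest of both ratios. The part of this in the levels of number 5 was not tested. Of the markers of spinal cord cells, all 9 oligodendrocyte precursor markers measured had group means above the table median, whereas all 11 microglia and macrophage markers and all 7 endothelial markers lay below it in every group. Differences between groups were tested with limma over all 31042 probe sets, with Benjamini-Hochberg adjustment, and a gene was called at an adjusted p under 0.05. Same-numbered arrays deviated together, so a fit with the title number as a block is given beside a result where it changes the call.

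Few cell division genes differed between the groups beyond the spread of the arrays. With BMP, 0 of 42 genes were called against the controls by limma (1 gene at an unadjusted p under 0.05), where 6.01% of all probe sets were called. With CNTF, 0 of 42 were called against the controls (0 at an unadjusted p under 0.05), where the background was 2.32%. BMP against CNTF gave 1 called gene of 42, the D-type cyclin Ccnd2, which was higher with BMP, against a background of 6.23%. With the title number as a block, 2 genes were called for BMP against control (Ccnd2 rose and Ccnd1 fell), 1 for CNTF against control (Cdc25b fell) and 3 for BMP against CNTF (Ccnd2 and Tyms rose and Ccnd1 fell), where 16.7%, 7.57% and 15.1% of all probe sets were called. Each of these shares of the 42 genes was below its background, although 0 of 42 is close to the 2.32% for CNTF. The median SD of these genes was 0.81 with BMP, 1.02 with CNTF and 1.57 in the controls. Over all probe sets it was 0.31, 0.29 and 0.30. Without the block, a difference of a given size was therefore harder to call for these genes. The comparisons of BMP and of CNTF with the controls share the 6 control arrays. In all 3 comparisons the 2 groups overlapped for every one of the 42 genes. The share of all probe sets that overlapped was not counted, so this overlap is not shown to be particular to these genes. In bulk RNA, fewer cells of a type and less RNA per cell cannot be told apart.

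The differences leaned upward without passing the test. The median over the 42 genes was 0.48 log2 for BMP minus control with 38 positive, 0.20 for CNTF minus control with 35 positive, and 0.26 for BMP minus CNTF with 39 positive, while the median over all probe sets was 0.01, -0.01 and 0.01. By phase, the BMP minus control median was 0.08 for G1 and S entry, 0.48 for S phase and 0.54 for G2 and mitosis. CNTF minus control gave -0.07, 0.16 and 0.29, and BMP minus CNTF 0.22, 0.41 and 0.25. Single arrays set the G2 and mitosis medians against control: without control 3 they were -0.04 for BMP and -0.24 for CNTF, and without control 5 they were 0.85 and 0.60. The S phase median with BMP stayed between 0.28 and 0.79 when 1 array or number was left out, and with CNTF it lay between -0.15 (without CNTF 4) and 0.47 (without control 4). The G1 and S entry median turned to -0.06 for BMP minus control without BMP 4 and to 0.12 for CNTF minus control without control 4, with ranges of -0.06 to 0.31 and -0.42 to 0.12. For BMP minus CNTF, the leave-out ranges were -0.05 (without BMP 4) to 0.50 (without CNTF 4) for G1 and S entry, 0.21 (without BMP 4) to 0.71 (without CNTF 4) for S phase and 0.05 (without BMP 5) to 0.50 (without BMP 3) for G2 and mitosis.

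**Figure D1:**
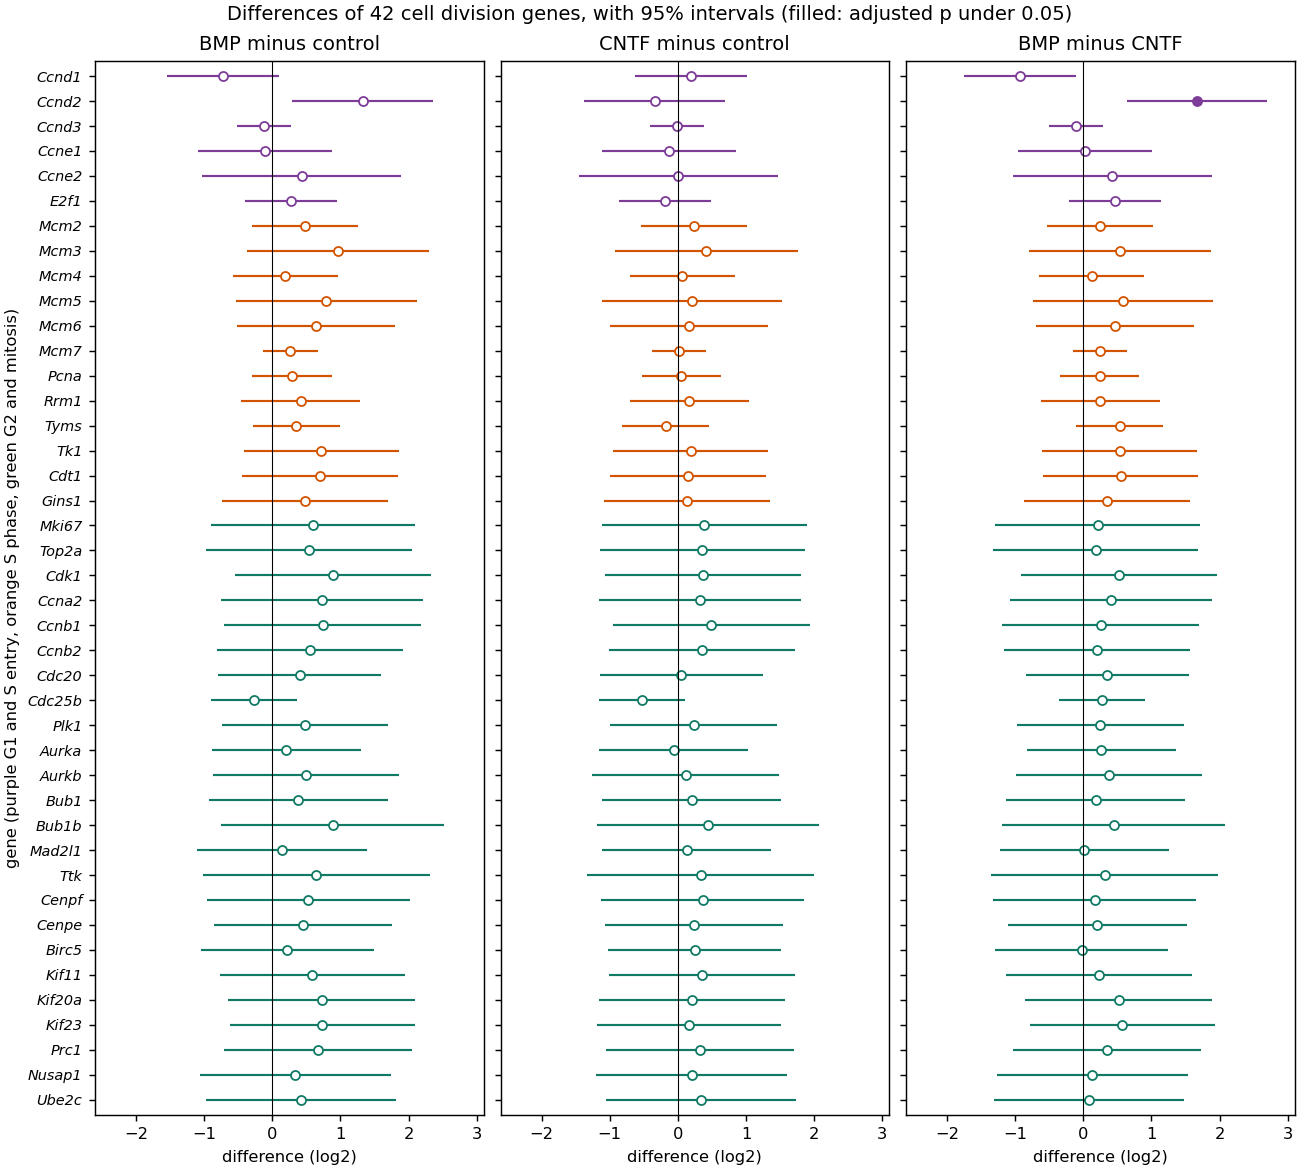
Differences of the 42 measured cell division genes in log2 units (x axis) for BMP minus control, CNTF minus control and BMP minus CNTF, with 95% intervals from limma; circles are differences, filled where the adjusted p is under 0.05. The single filled circle is Ccnd2 in BMP minus CNTF (+1.67), and the intervals of all S phase and G2 and mitosis genes span 0.

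The D-type cyclins, which receive growth signals and start the cycle, differed in opposite directions with BMP. Ccnd2 levels were 13.94, 14.80 and 15.31 (lowest, median and highest) on BMP arrays, 11.90, 13.03 and 14.16 on CNTF arrays and 11.69, 13.21 and 15.03 on control arrays. The BMP arrays were the highest of their number in every case, and BMP 3, the lowest of them, was above all CNTF arrays except CNTF 4. Ccnd2 differed by +1.67 ± 0.49 log2 (SE, limma adjusted p = 0.0497, 3.17-fold) for BMP minus CNTF, and by 2.84, 1.43, 1.35, 1.16, 1.38 and 1.85 within numbers 1 to 6. This call sat at the threshold: it was lost when any 1 of 13 of the 18 arrays was left out (BMP 1, 2, 4, 5 or 6, CNTF 1, 2, 3, 5 or 6, or control 1, 2 or 6), with adjusted p up to 0.111, whereas with the block the adjusted p was 0.00049.

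Against the controls, Ccnd2 with BMP differed by +1.33 ± 0.49 log2 (2.51-fold, limma adjusted p = 0.129), and the block fit called it (adjusted p = 0.00298), as did the fit that left out control 5 (adjusted p = 0.0470). The difference was positive in 6 of 6 same-numbered pairs, at 1.99, 1.95, 2.25, 0.38, 0.20 and 1.18 for numbers 1 to 6. It was smallest where controls 4 and 5 were high themselves, at 14.94 and 15.03. With CNTF the difference was -0.34 ± 0.49 (adjusted p = 0.912), positive in 2 of 6 pairs.

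Ccnd1 went the other way. Its levels were 11.30, 12.73 and 14.19 on BMP arrays, 13.08, 13.70 and 14.40 on CNTF arrays and 12.69, 13.14 and 14.55 on control arrays. The BMP array was the lowest of its number in all 6 cases, but BMP 4 lay above most arrays of the other groups. For BMP minus control the difference was -0.73 ± 0.39 (limma adjusted p = 0.349, and 0.0400 with the block), with -0.19, -0.53, -1.39, -0.29, -1.78 and -0.18 in numbers 1 to 6. For BMP minus CNTF it was -0.92 ± 0.39 (adjusted p = 0.21, and 0.0114 with the block). Both other Ccnd1 probe sets gave a lower BMP array in 6 of 6 pairs, with differences from control of -0.86 and -1.02 (adjusted p = 0.0361 and 0.0318 with the block, 0.452 and 0.414 without it).

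Ccnd3, the remaining D-type cyclin, varied little, between 11.46 and 12.58 over all 18 arrays. It differed by -0.12 ± 0.19 for BMP minus control, -0.02 ± 0.19 for CNTF minus control and -0.11 ± 0.19 for BMP minus CNTF. The 95% intervals of these differences reached from -0.52 to 0.38 at most. A change of this gene by 1 log2 unit was therefore outside the intervals of all 3 comparisons.

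Beside these D-type cyclin values, markers of several cell types were called with BMP. Of all probe sets, 6.01% were called for BMP against control and 6.23% for BMP against CNTF. All 9 measured oligodendrocyte precursor markers fell with BMP against control (9 of 9 called), and their summed intensity was 31368 to 143366 on BMP arrays, 132775 to 186990 on CNTF arrays and 159287 to 217271 on control arrays. Against CNTF, 6 of the 9 fell with BMP. Of 11 oligodendrocyte markers 6 fell with BMP against control and 7 against CNTF, with sums of 23943 to 135773 on BMP arrays, 124428 to 335334 on CNTF arrays and 97320 to 293212 on control arrays. Of 9 fibroblast and smooth muscle markers 2 rose in each comparison, with sums of 14918 to 98304 on BMP arrays, 2718 to 25972 on CNTF arrays and 3651 to 14167 on control arrays. Of 10 neuron markers 2 rose and 1 fell with BMP in each comparison, with sums of 64091 to 103207 on BMP arrays, 58488 to 80421 on CNTF arrays and 62930 to 72994 on control arrays. Against control, 1 of 6 neural stem cell markers rose and 1 fell with BMP, and 1 of 9 astrocyte and 1 of 7 endothelial markers rose. In lists this short, 1 called marker cannot be told apart from the share over all probe sets. All 7 endothelial markers also lay below the table median. Of 5 Schwann cell markers 4 had positive differences from control. The 1 that fell was Sox10, already counted among the precursor markers. Against CNTF, Sox10 was again the 1 Schwann cell marker that fell with BMP, and no neural stem cell, astrocyte or endothelial marker was called. The part of these cell types in the Ccnd1 and Ccnd2 values was not tested.

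**Figure D2:**
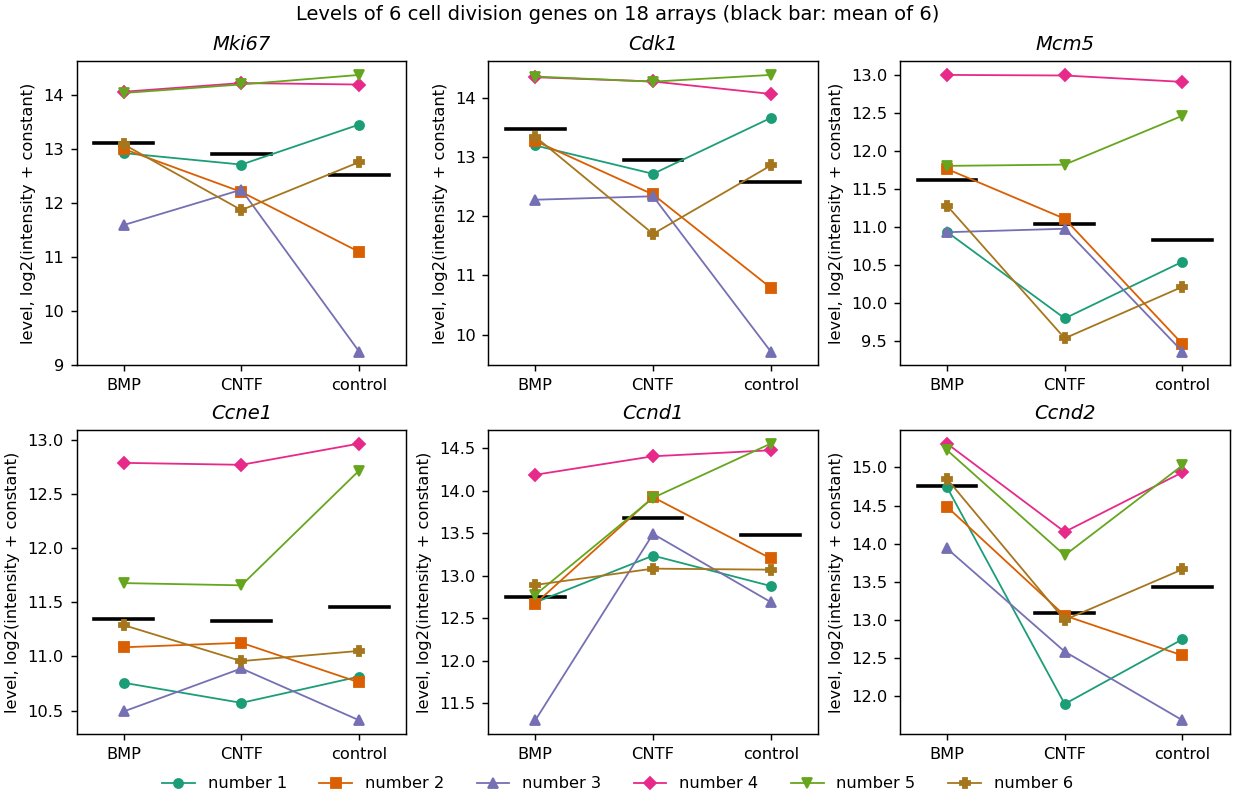
Levels of 6 cell division genes, log2(intensity + constant), on BMP, CNTF and control arrays; each line joins the 3 arrays of a title number, black bars are means of 6 arrays, and the y axes differ between genes. Ccnd2 is highest with BMP in every number and Ccnd1 lowest, while Mki67, Cdk1 and Mcm5 have their widest spread on the control arrays.

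The E-type cyclins and E2f1, which carry the cell into S phase, were not called in any comparison, with or without the block. Ccne1 levels were 10.49, 11.19 and 12.79 on BMP arrays, 10.57, 11.04 and 12.77 on CNTF arrays and 10.41, 10.93 and 12.97 on control arrays. Number 4 was the highest in each group. Ccne1 differed by -0.11 ± 0.47 for BMP minus control, -0.12 ± 0.47 for CNTF minus control and 0.02 ± 0.47 for BMP minus CNTF, and the sign of each turned when single arrays were left out. Ccne2 differed by 0.43 ± 0.70, 0.004 ± 0.70 and 0.43 ± 0.70 in the same order. Its second probe set spanned 9.86 to 11.43 over the 18 arrays, against 9.67 to 13.50 for the one used. E2f1, a transcription factor that switches on replication genes, had levels of 10.31, 10.82 and 11.17 on BMP arrays, 9.15, 10.42 and 11.48 on CNTF arrays and 9.44, 10.47 and 11.24 on control arrays. Its BMP minus CNTF difference was 0.46 ± 0.33 (limma adjusted p = 0.542), positive in 5 of 6 pairs.

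In the S phase group, every one of the 12 genes had a positive BMP minus control difference, from 0.19 (Mcm4) to 0.96 (Mcm3). None was called without the block (smallest limma adjusted p = 0.478, 0 at an unadjusted p under 0.05). With the block none was called either (smallest limma adjusted p = 0.0639). Its unadjusted p was 0.012 to 0.049 for Mcm2, Mcm3, Mcm5, Mcm6, Mcm7, Pcna, Rrm1, Tyms, Tk1 and Cdt1. For Mcm4 and Gins1 it was 0.27 and 0.10. The share of all probe sets at this unadjusted cut was not counted. After adjustment the block fit still called 16.7% of all probe sets. Genes measured on the same arrays are not independent, so these p-values are not separate findings. CNTF minus control ranged from -0.18 (Tyms) to 0.42 (Mcm3), with 11 of 12 positive. BMP minus CNTF ranged from 0.13 (Mcm4) to 0.58 (Mcm5), with 12 of 12 positive and none called without the block. The MCM genes encode the subunits of the replicative helicase. Mcm3 levels were 10.82, 11.66 and 13.22 on BMP arrays, 10.06, 11.07 and 13.09 on CNTF arrays and 9.33, 10.18 and 13.07 on control arrays, with BMP minus control at 0.96 ± 0.64 (adjusted p = 0.478, and 0.0639 with the block). Mcm5 levels were 10.93, 11.52 and 13.00 on BMP arrays, 9.53, 11.04 and 12.99 on CNTF arrays and 9.36, 10.37 and 12.91 on control arrays, with BMP minus control at 0.79 ± 0.63 (adjusted p = 0.577). For both genes the highest value of each group came from number 4 and the highest values of the 3 groups were nearly equal, while the lowest values were lower on the control arrays than on the BMP arrays by more than 1 log2 unit.

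Mcm2 and Mcm7 belong to the same helicase. Mcm2 levels were 11.45, 11.71 and 12.77 on BMP arrays, 11.13, 11.48 and 12.87 on CNTF arrays and 10.63, 10.97 and 12.81 on control arrays (BMP minus control 0.48 ± 0.37, CNTF minus control 0.24 ± 0.37). Mcm7 had levels of 13.74, 13.90 and 14.35 on BMP arrays, 13.13, 13.73 and 14.39 on CNTF arrays and 13.30, 13.64 and 14.21 on control arrays. Its BMP minus control difference was 0.26 ± 0.19 and its BMP minus CNTF difference 0.25 ± 0.19. Both genes overlapped between all groups. The other members of the helicase, Mcm4 and Mcm6, differed by 0.19 ± 0.37 and 0.64 ± 0.55 for BMP minus control.

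Genes of nucleotide supply and of the replication fork were not called in any comparison without the block. Tyms levels were 9.63, 9.92 and 10.91 on BMP arrays, 9.17, 9.34 and 10.50 on CNTF arrays and 8.84, 9.58 and 10.78 on control arrays. Its BMP minus CNTF difference was 0.53 ± 0.31 (limma adjusted p = 0.407), positive in 6 of 6 pairs, and the block fit called Tyms (adjusted p = 0.0395). Tyms lay near the table median of 9.75, where the added constant compresses differences. Tk1, thymidine kinase, had levels of 10.55, 11.89 and 12.52 on BMP arrays, 10.61, 10.76 and 12.47 on CNTF arrays and 9.07, 11.44 and 12.47 on control arrays, and differed by 0.72 ± 0.55 for BMP minus control (adjusted p = 0.553). The low end of the controls was made by numbers 2 and 3, at 9.38 and 9.07. Cdt1, which loads the helicase at origins, had levels of 11.02, 11.53 and 12.79 on BMP arrays, 9.67, 11.09 and 12.66 on CNTF arrays and 9.61, 10.25 and 12.93 on control arrays (BMP minus CNTF 0.55 ± 0.55). Pcna, the sliding clamp of the polymerases, had levels of 14.86, 15.08 and 15.87 on BMP arrays, 14.41, 14.91 and 15.85 on CNTF arrays and 14.33, 14.61 and 15.86 on control arrays. Pcna differed by 0.29 ± 0.28 for BMP minus control and 0.05 ± 0.28 for CNTF minus control. Rrm1 (the large subunit of ribonucleotide reductase) and Gins1 (part of the replicative helicase complex) differed by 0.42 ± 0.42 and 0.47 ± 0.58 for BMP minus control.

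Among the 24 genes of G2 and mitosis, 23 had a positive BMP minus control difference and 22 a positive CNTF minus control difference. None was called in any comparison without the block (0 of 24 at an unadjusted p under 0.05 in each). With the block, the unadjusted limma p for BMP minus control was under 0.05 for Cdk1 and Kif23 alone (0.044 and 0.043). The share of all probe sets at that cut was not counted. Mki67, the gene of the proliferation antigen Ki-67, had levels of 11.59, 13.04 and 14.06 on BMP arrays, 11.87, 12.48 and 14.22 on CNTF arrays and 9.24, 13.10 and 14.37 on control arrays. The control medians and highest values lay close to those of BMP, and control 3 and control 2 were the 2 lowest arrays of all 18. Mki67 differed by 0.60 ± 0.72 for BMP minus control (limma adjusted p = 0.744) and 0.39 ± 0.72 for CNTF minus control (adjusted p = 0.937), and without control 3 by -0.06 and -0.27.

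Top2a, the topoisomerase that untangles sister chromosomes, had levels of 11.93, 13.02 and 14.31 on BMP arrays, 11.91, 12.69 and 14.48 on CNTF arrays and 9.52, 13.31 and 14.65 on control arrays. Cdk1 levels were 12.28, 13.30 and 14.35 on BMP arrays, 11.70, 12.54 and 14.27 on CNTF arrays and 9.71, 13.26 and 14.38 on control arrays. Ccnb1, the mitotic cyclin that partners Cdk1, had levels of 11.90, 13.27 and 14.44 on BMP arrays, 12.19, 12.77 and 14.46 on CNTF arrays and 9.69, 13.46 and 14.32 on control arrays. All 3 genes had their lowest value on control 3, followed by control 2. For BMP minus control they differed by 0.54 ± 0.72, 0.89 ± 0.69 and 0.74 ± 0.69, and for CNTF minus control by 0.36 ± 0.72, 0.37 ± 0.69 and 0.49 ± 0.69. Without control 3 the BMP minus control values were -0.09, 0.31 and 0.15, and the CNTF minus control values -0.28, -0.21 and -0.10.

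The other mitotic genes had differences of a similar size, and none was called without the block. CNTF minus control ranged from -0.53 (Cdc25b) to 0.49 (Ccnb1), and BMP minus CNTF from -0.03 (Birc5) to 0.57 (Kif23, higher with BMP in 6 of 6 pairs). BMP minus control was largest for Cdk1 and for Bub1b, a spindle checkpoint kinase (0.89 ± 0.78), and was 0.74 ± 0.65 for Kif23 and 0.73 ± 0.66 for Kif20a, motor proteins of cytokinesis. It was smallest among the positive ones for Mad2l1, a checkpoint protein (0.14 ± 0.59), Aurka, a centrosome kinase (0.21 ± 0.52), and Birc5, the survivin gene (0.22 ± 0.61). Plk1, Aurkb, Bub1 and Ttk, kinases of the mitotic entry and the spindle checkpoint, differed by 0.48, 0.49, 0.38 and 0.65. Cenpe and Cenpf at the kinetochore differed by 0.45 and 0.53, Cdc20 and Ube2c of the anaphase-promoting complex pathway by 0.41 and 0.42. Ccna2 and Ccnb2, both cyclins, differed by 0.73 and 0.55, and Kif11, Prc1 and Nusap1 of the spindle by 0.59, 0.67 and 0.33.

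Cdc25b was the exception. Its levels were 11.62, 12.17 and 13.00 on BMP arrays, 11.27, 11.91 and 12.97 on CNTF arrays and 11.85, 12.56 and 13.47 on control arrays. Number 1 was its highest array in each group, and control 4, where most other mitotic genes were high, was its lowest control. For CNTF minus control it differed by -0.53 ± 0.30 (limma adjusted p = 0.566), negative in 6 of 6 pairs, and the block fit called it (adjusted p = 0.0197). For BMP minus control the difference was -0.27 ± 0.30, negative in 5 of 6 pairs.

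Within same-numbered arrays the G2 and mitosis genes differed from the control together, but in opposite directions in different numbers. In number 1, all 24 were lower with BMP than in the control (median -0.62) and all 24 were lower with CNTF (median -0.81). In numbers 2 and 3, 23 of 24 were higher with BMP, with medians of 1.90 and 1.75, and 22 and 23 of 24 were higher with CNTF, with medians of 1.12 and 2.26. The 1 gene lower in both numbers with BMP was Cdc25b. In number 4 the medians were 0.03 for BMP and 0.12 for CNTF, and in number 5 they were -0.16 and -0.10. In number 6 the factors parted: 17 of 24 genes were higher with BMP (median 0.16), and 0 of 24 were higher with CNTF (median -0.99). Over all probe sets the median difference of a same-numbered pair lay between -0.02 and 0.03. These counts come from single pairs of arrays, and genes of 1 array are not independent, so no test was made of them.

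S phase genes did not always go with the mitotic ones. In number 1, 11 of 12 S phase genes were higher with BMP than in the control (median 0.30) while all 24 mitotic genes were lower. In number 5, 0 of 12 S phase genes were higher with BMP (median -0.52) or with CNTF (median -0.54), where the mitotic medians were near 0. In number 6, all 12 were higher with BMP (median 0.78) and 3 of 12 with CNTF (median -0.15). Numbers 2 and 3 had all 12 higher with both factors, with medians of 1.45 and 0.81 for BMP and 0.999 and 1.06 for CNTF. In number 4 they were 0.03 and 0.01.

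Between BMP and CNTF arrays of the same number, the mitotic medians lay farthest from 0 in numbers 2 and 6, and the S phase medians in numbers 1 and 6. In number 2 all 12 S phase genes and all 24 mitotic genes were higher with BMP than with CNTF, with medians of 0.46 and 0.82. In number 6 the same held, with medians of 0.95 and 1.10. In number 3, 9 of 12 S phase and 22 of 24 mitotic genes were lower with BMP (medians -0.05 and -0.38). Numbers 4 and 5 had medians between -0.08 and 0.01 for both phases, and number 1 had 0.70 for S phase and 0.13 for mitosis.

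**Figure D3:**
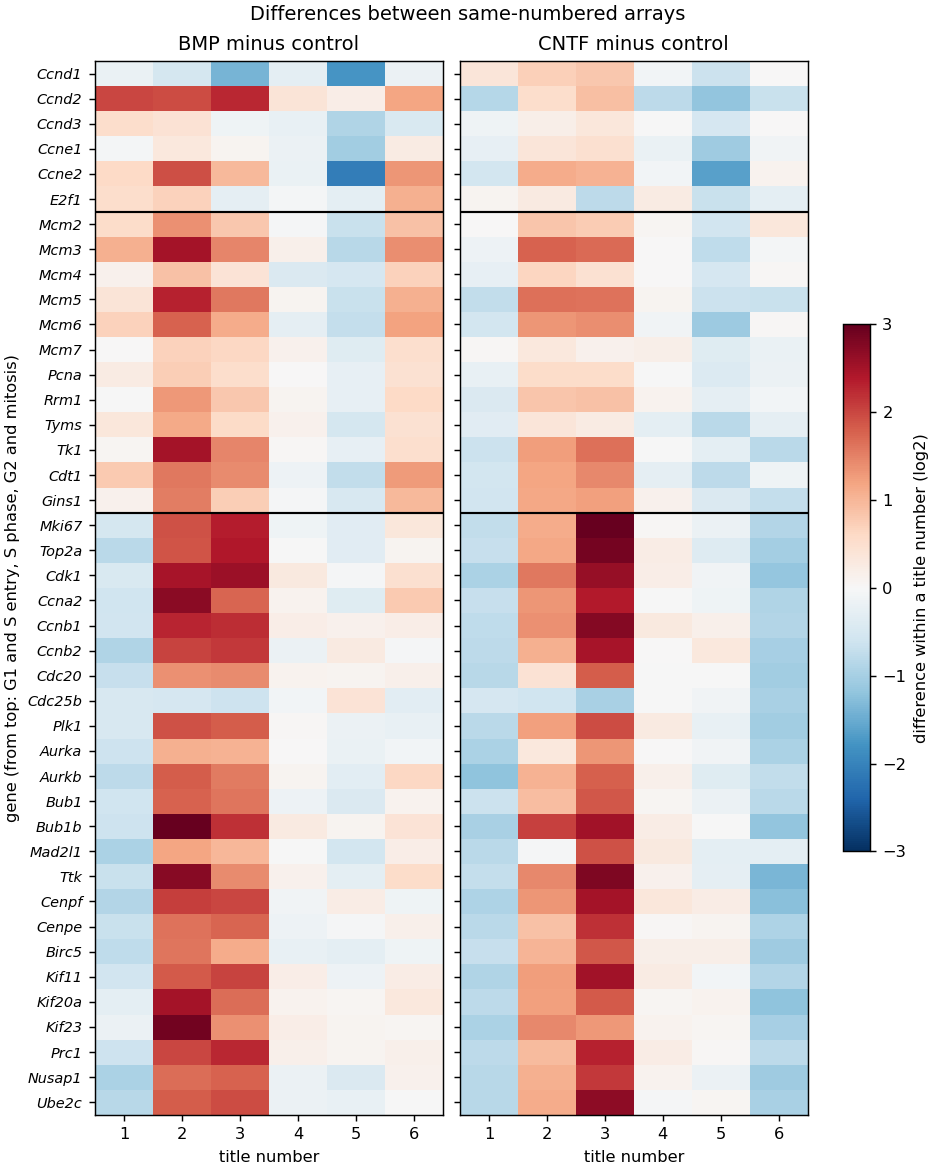
Differences between same-numbered arrays in log2 units (colour, red higher and blue lower than the control) for 42 cell division genes (rows) and title numbers 1 to 6 (columns), BMP minus control at left and CNTF minus control at right. Numbers 2 and 3 are red for nearly all S phase and mitotic genes, and number 1 is blue for all mitotic genes. In the BMP columns Ccnd1 is lower than the control in all 6 numbers and Ccnd2 higher in all 6.

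The title number, rather than the factor given, held most of the variation of these genes. In an F test of the number, chosen after the data were examined, 41 of 42 genes passed at an adjusted p under 0.05, against 32.7% of all probe sets; the remaining gene was Ccnd3 (adjusted p = 0.156). The number held a median of 74.2% of the sum of squares of the 42 genes, and the factor 4.63%, while over all probe sets the medians were 41.3% and 13.8%. Ccne1 had the highest share for the number, 91.5%, and Ccnd2 the highest share for the factor, 40.2%, followed by Ccnd1 with 24.4%. What the title numbers stand for is not given in the labels, so a batch, an animal or a preparation cannot be told apart.

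For the mitotic genes, numbers 4 and 5 were high in every group. For each gene the deviation from its own mean over the 18 arrays was taken, and the median over the 24 mitotic genes was 1.11 and 1.25 on BMP 4 and BMP 5, 1.24 and 1.35 on CNTF 4 and CNTF 5, and 1.10 and 1.39 on control 4 and control 5. On the other arrays it was -1.10 to 0.15 with BMP, -0.98 to -0.05 with CNTF and -2.996 to 0.72 in the controls. The lowest were control 3 (-2.996) and control 2 (-1.87). Over the 12 S phase genes, number 4 was the highest in each group (1.18 on BMP, 1.22 on CNTF and 1.19 on control), and number 5 was at 0.47, 0.30 and 1.06. Control 2 and control 3 were again the lowest, at -1.14 and -1.45. Over the 6 genes of G1 and S entry, number 4 was at 1.15 on BMP, 1.04 on CNTF and 1.17 on control. For these genes number 5 was at 0.02 on BMP, 0.11 on CNTF and 1.26 on control.

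**Figure D4:**
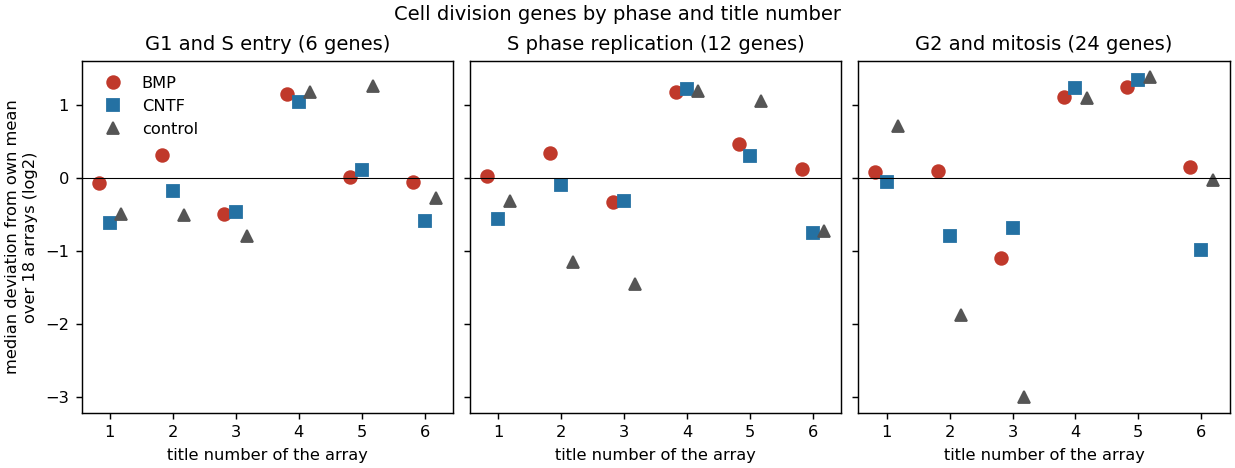
Median deviation of cell division genes from their own mean over 18 arrays (y axis, log2) by title number (x axis) for BMP, CNTF and control arrays, with 1 panel per phase. Numbers 4 and 5 lie above 1 for the 24 mitotic genes in all groups, and control 3 lies lowest at -2.996.

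The spread was widest among the controls. The SD over 6 arrays had a median over the 42 genes of 0.81 with BMP, 1.02 with CNTF and 1.57 in the controls, while over all probe sets it was 0.31, 0.29 and 0.30. The control SD was the largest of the 3 for 38 of 42 genes (23 of 24 of G2 and mitosis, 11 of 12 of S phase and 4 of 6 of G1 and S entry), against 35.3% of all probe sets. The 4 exceptions were Ccnd1, E2f1, Mcm7 and Cdc25b. This comparison of spreads was made after the data were examined and carries no test. Control 2 and control 3, the low arrays, had GAPDH 3′ to 5′ ratios of 1.10 and 1.09 and oligodendrocyte precursor marker sums of 199068 and 159287, while the other controls had ratios of 1.09 to 1.15 and sums of 168493 to 217271. Control 3 also had the highest oligodendrocyte marker sum of the controls (293212, the others 97320 to 254044) and the highest neuron marker sum (72994, the others 62930 to 71085). The part of these differences in the spread was not tested.

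**Figure D5:**
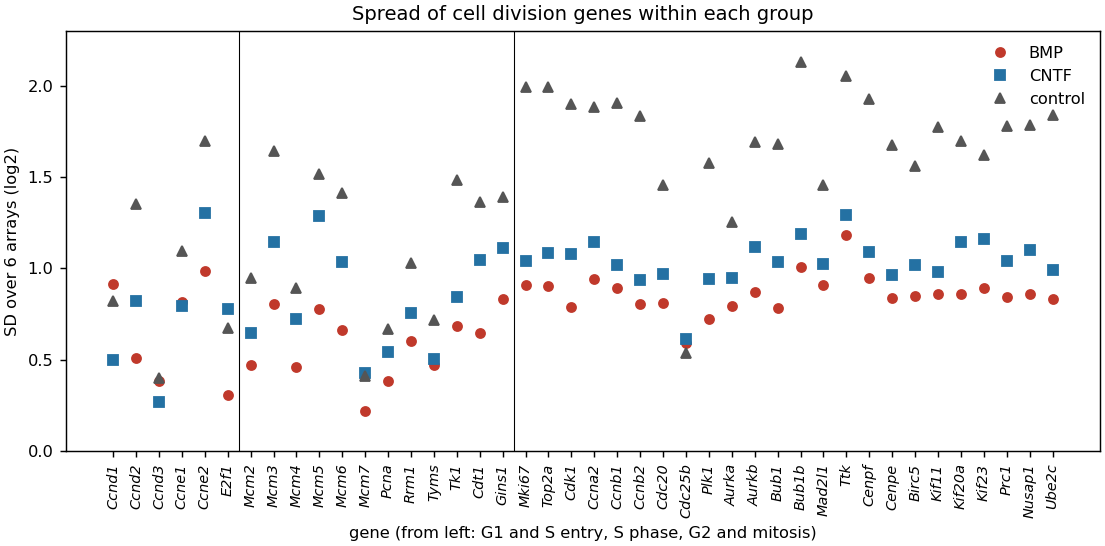
SD over 6 arrays (y axis, log2) of each of the 42 cell division genes for BMP, CNTF and control arrays. The control SD is the largest for 38 genes, and the median over the 24 mitotic genes is 0.86 with BMP, 1.04 with CNTF and 1.78 in the controls.

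Of 34 further S phase genes and 49 further genes of G2 and mitosis, 0 were called by limma in any comparison. At an unadjusted p under 0.05 these were 0 and 1 for BMP against control, 1 (lower) and 0 for CNTF against control, and 0 and 0 for BMP against CNTF. With the block, 2 S phase genes rose and 1 fell with BMP against control, 1 S phase gene fell with BMP against CNTF, and 1 gene of G2 and mitosis rose with BMP against control. The block fit called 16.7% of all probe sets for BMP against control and 15.1% for BMP against CNTF. Their BMP minus control medians were 0.28 (30 of 34 positive) and 0.37 (42 of 49 positive). The number passed its F test for 33 of 34 and 48 of 49, and the control SD was the largest for 29 of 34 and 45 of 49.

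Of 19 further genes of G1 and S entry, 3 were called in at least 1 comparison. With BMP against control 1 rose and 1 fell, where 6.01% of all probe sets were called. With BMP against CNTF 2 rose and 1 fell, where 6.23% were called. Tfdp2, a binding partner of E2F factors, averaged 12.01 ± 0.50 with BMP, 11.32 ± 0.26 with CNTF and 11.30 ± 0.23 in the controls (SD, n = 6 each), and rose by 0.71 ± 0.19 for BMP against control (limma adjusted p = 0.0295) and by 0.69 ± 0.19 for BMP against CNTF (adjusted p = 0.0322). Mycn, a growth-promoting transcription factor, averaged 11.29 ± 0.68, 10.11 ± 0.62 and 10.31 ± 0.39 in the same groups. It rose by 1.17 ± 0.31 for BMP against CNTF (adjusted p = 0.0251) and differed by 0.97 ± 0.31 for BMP against control (adjusted p = 0.0657, and 0.00082 with the block). Myc, its relative, averaged 12.58 ± 0.35, 13.10 ± 0.16 and 13.11 ± 0.24, and fell with BMP against control (-0.53 ± 0.14, adjusted p = 0.0311) and against CNTF (-0.51 ± 0.14, adjusted p = 0.0363). Mycn and Tfdp2 were higher with BMP in 6 of 6 pairs in both comparisons, and Myc was lower with BMP in 6 of 6 pairs against the controls. None of the 19 was called for CNTF against control (2 higher at an unadjusted p under 0.05, 1 risen with the block). The block fit called 7.57% of all probe sets in that comparison.

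Of 7 cyclin-dependent kinase inhibitors, which hold the cycle back, 0 were called by limma in any comparison, with 1 lower at an unadjusted p under 0.05 for BMP against control, 1 higher for CNTF against control and 2 lower for BMP against CNTF. With the block 2 fell with BMP against control, Cdkn1c (-1.09 ± 0.37, adjusted p = 0.00435) and Cdkn2d (-0.36 ± 0.22, adjusted p = 0.0498), and 2 fell with BMP against CNTF. Of all probe sets, the block fit called 16.7% and 15.1% in these comparisons.

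For 11 of the 42 genes more than 1 probe set was present. The second probe sets of Top2a, Ccnb1, Kif11 and Nusap1 gave BMP minus control differences of 0.61, 0.81, 0.56 and 0.25, close to the 0.54, 0.74, 0.59 and 0.33 of those used. Those of Ttk, Kif23 and Ccne2 gave smaller ones, 0.18, 0.38 and 0.16, against 0.65, 0.74 and 0.43. The 2 further Tk1 probe sets gave 0.81 and 0.35, against 0.72 for the one used. Of the 4 other Cdc20 probe sets 2 differed by 0.38 and 0.33 and 2 by -0.01 and -0.02, against 0.41 for the one used. One of 2 further Mad2l1 probe sets was at -0.14, the other at 0.18. Apart from those of Ccnd1, no further probe set of the 11 genes was called in any comparison, with or without the block.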

How the data were processed

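The 18 arrays were analysed from the deposited series table, in which the authors give each probe set as a linear intensity value (0.404 to 162940); how they were summarised and scaled is not given in the sources used here. Trimmed means of 2500.7 to 2500.8 on all arrays are those of values scaled to 1 target, and the deposited scaling was kept. After removal of 57 control probe sets, linear models of log2(intensity + 116.655) were made in R 4.3.3 with limma 3.58.1 (3 group means over all 18 arrays, empirical Bayes with an intensity trend, two-sided tests, Benjamini-Hochberg over 31042 probe sets). Values after ± are limma standard errors for differences and SD for group means; the constant makes differences of dim genes smaller. Of the tested probe sets 20826 carried 1 symbol, 436 several and 9780 none.

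Pairing by title number was checked before fits were compared: deviations from group means of same-numbered arrays correlated at 0.12 to 0.49 in all 18 pairs, against a median of -0.09 over 90 pairs of different number and group, so the number was used as a block in an alternative fit. Alternatives were another constant, quantile normalization, a filter on dim probe sets, no trend, the compared groups alone, the mean of a gene's probe sets, and leaving out each array and each number. Members, gene lists and markers were chosen with earlier results of these data known. By rule, values by array were planned for Mki67, Top2a, Cdk1, Ccnb1, Ccnd1, Ccnd2, Ccne1, Mcm5 and Pcna. The rule added up to 6 genes with the smallest p per comparison. The text gives the lowest, median and highest level of these genes in each group. Other members are given by difference, and genes outside the list where called. The printed Mcm5 and Cdk1 promoters fall outside the rule. The number of arrays limits the precision. The fit was tested on simulated data.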

Additional observations from a re-analysis of the deposited data

Results flagged for a closer look

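Each of 126 sets of 6 arrays (42 genes in 3 groups) was checked for an array far from the others in its group. By Dixon's criterion 3 sets stood out. By chance the criterion flags about 1 in 20 sets, and 3 of 126 is a smaller share. Tyms was at 10.91 on BMP 4, where the nearest BMP array was at 10.08, and at 10.50 on CNTF 4, where the nearest CNTF array was at 9.38. Cdt1 was at 12.79 on BMP 4, where the nearest BMP array was at 11.56. All 3 values are high values of title number 4.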

How the results depend on the processing

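With the title number as a replicate block, the paired fit called 2 genes for BMP against control, 1 for CNTF against control and 3 for BMP against CNTF, and 5176, 2349 and 4686 probe sets in the same order. BMP against CNTF gave 0 called genes with a constant of 16 (Ccnd2 adjusted p = 0.0513) and with no intensity trend (0.0637). Ccne1 for BMP against CNTF turned to -0.0041 after quantile normalization. The cause was not tested. With arrays or numbers left out, called genes ranged from 0 to 1 for BMP against control and BMP against CNTF and stayed at 0 for CNTF against control, and called probe sets ranged from 740 to 2097, 1111 to 1985 and 366 to 795; the lowest counts came from fits without a whole number, which hold fewer arrays. For BMP minus control Mki67 ranged from -0.057 to 0.97, Top2a from -0.094 to 0.93 and Ccne1 from -0.39 to 0.20. For CNTF minus control Mki67 ranged from -0.27 to 0.76, Top2a from -0.28 to 0.75, Cdk1 from -0.21 to 0.73, Ccnb1 from -0.10 to 0.83, Ccne1 from -0.41 to 0.18, Mcm5 from -0.18 to 0.63, Pcna from -0.13 to 0.24 and Tyms from -0.38 to 0.042. For BMP minus CNTF Top2a ranged from -0.047 to 0.47 and Ccne1 from -0.27 to 0.31. Ccnd2 stayed positive against control (0.98 to 1.64) and CNTF (1.43 to 1.88), and Ccnd1 negative (-1.01 to -0.44 and -1.21 to -0.63).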
